A study of Mus musculus with 9 samples.

Results

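Polycomb repressive complex 2 (PRC2) was examined through the RNA of 10 of its subunits, which are the *Ezh1*, *Ezh2*, *Suz12*, *Eed*, *Mtf2*, *Phf1*, *Phf19*, *Jarid2*, *Aebp2* and *Rbbp7* genes. They were taken by name from the 55228 genes of the count table, and all 10 were among the 15253 genes with enough reads to be tested. RNA-seq of polyA RNA had been made from HC11, a mouse mammary epithelial cell line, in 3 lines of 3 cultures each. *WT* is the parental line, and *KD1* and *KD2* are HC11 lines edited with CRISPR at *Vangl2*, a membrane protein of planar cell polarity. The labels call *KD1* and *KD2* knockouts, while the study calls them knockdowns. All 9 cultures grew without a further treatment in RPMI-1640 medium that held EGF at 10 ng/mL, insulin at 5 µg/mL and 10% FBS.

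The *KD1* and *KD2* lines were each made with a different guide and a repair template carrying stop codons, and each was expanded from a colony. A colony line that had gone through the same steps without an edit was not among the 9 cultures, so an effect of the edit and a difference that a colony carried by itself cannot be told apart. The labels give replicate numbers but do not say that replicates came from separate thaws or days, so p-values measure only the spread between these cultures, which may be technical. In bulk RNA, fewer cells of a type and less RNA per cell cannot be told apart.

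PRC2 places methyl groups on lysine 27 of histone H3, a mark of silenced chromatin. EZH2 or its close relative EZH1 is the methyltransferase, which is active only together with SUZ12 and EED, and RBBP7 or RBBP4 is the histone-binding subunit. In the form called PRC2.1 this core holds one of the Polycomb-like proteins PHF1, MTF2 or PHF19, and in PRC2.2 it holds AEBP2 and JARID2. Cycling cells are known to hold more EZH2, resting and differentiated cells more EZH1, and promoters of *Ezh2* and of other core genes are known targets of the E2F factors that drive the cell cycle.

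Because of that link, the RefSeq promoters of the members (GRCm38.p6, 250 bases before to 50 bases after each start) were searched on both strands for forms of the E2F motif, spelled TTCCCGC in the first form, then TTGGCGC in the next and TTCGCGC in the last. All 10 members had a promoter in the table, and 3 of 10 held a match in any of their promoters, beside 9.2% of all genes there. A match is a description of the letters and not a site that was tested. The stretches around the 3 matches are shown 5′ to 3′ along the gene, with the motif, or its reverse complement, in capitals. Positions of the matches are counted from the RefSeq start, which for *Ezh2* and *Phf19* differs from the start of the gene positions given below. The *Ezh2* match starts at base 5 (chr6:47594996-47595050, minus strand), that of *Suz12* 218 bases before the start (chr11:79992864-79992918, plus strand) and that of *Phf19*, which reads as the reverse complement, 208 bases before (chr2:34914154-34914208, minus strand).
Ezh2: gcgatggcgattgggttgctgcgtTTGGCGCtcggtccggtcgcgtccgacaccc
Suz12: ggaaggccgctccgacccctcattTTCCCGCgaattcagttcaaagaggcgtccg
Phf19: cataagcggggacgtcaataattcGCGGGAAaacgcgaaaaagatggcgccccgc

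The cultures held between 19231428 and 28360592 counts, so that 3 counts, taken as the limit of detection, equalled 0.0999 to 0.154 CPM (counts per 1000000 of a TMM-scaled library). *Vangl2* itself was at 3.38, 3.96 and 4.20 CPM in *WT*, at 2.77, 1.89 and 2.78 CPM in *KD1* and at 3.64, 3.93 and 4.43 CPM in *KD2*. It was lower in *KD1* than in *WT* (log2 fold change -0.63 ± 0.17 SE, adjusted p = 0.0058), and in the cultures labelled *KD2* it was not (0.05 ± 0.16, adjusted p = 0.81). A count over the whole gene does not test a stop codon placed inside it. By immunoblot, the study reported almost no VANGL2 protein in *KD1* and a strongly reduced amount in *KD2*. All 7 epithelial markers were expressed in every line, with a summed level of 5005 to 5585 CPM in the *WT* cultures, 5785 to 5943 CPM in those of *KD1* and 2978 to 3656 CPM in those of *KD2*. The 7 fibroblast markers summed to 17.0 to 23.0 CPM in the *WT* cultures, to 8.07 to 10.1 CPM in those of *KD1* and to 90.1 to 99.9 CPM in those of *KD2*. At or under the limit of detection in every culture of a line were 2 of the 7 in *WT*, 4 in *KD1* and, in *KD2*, *Lum* alone. Among the 5 with enough reads to be tested, 3 had a positive and 2 a negative log2 fold change in *KD2* against *WT*. In *KD1* against *WT*, 1 was positive and 4 were negative. The 5 immune, 4 endothelial and 4 adipocyte markers summed to at most 8.30, 5.50 and 0.256 CPM. At or under the limit in every culture of *WT*, *KD1* and *KD2* in that order were 4, 4 and 4 immune markers. The same held for 3, 2 and 1 endothelial and 3, 4 and 4 adipocyte markers. The 1 endothelial marker tested was called at 1.18 in *KD1* and -1.23 in *KD2* against *WT*. The 1 immune marker tested was called at 0.89 in *KD1* and stood at -0.02, not called, in *KD2*. The part of these shifts in the changes of the members was not tested.

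*KD2* replicate 3 stood apart. The other two *KD2* cultures differed from each other by a chi-square of 1.83 per degree of freedom over genes, while replicate 3 differed from them by 19.0 and 24.5. *WT* replicate 1 differed from the other *WT* cultures by 13.7 and 11.1, and all pairs exceeded sampling noise, so none was a repeat deposit. Against the other two *KD2* cultures, *KD2* replicate 3 was lower by a median of 0.27 on the log2 scale for the fifth of genes with the least G and C (GC) in their exons, and higher by 0.24 for the fifth with the most. The members followed the same slope, from *Suz12* (40.8% GC, 0.42 lower) and *Mtf2* (41.9%, 0.42 lower) to *Phf1* (59.2%, 0.31 higher). Genes with a GC content within 2 percentage points of each member deviated by medians of -0.28 for *Suz12*, -0.25 for *Mtf2* and 0.26 for *Phf1*. Over the 10 members the deviation and the GC content had a Spearman rho of 0.94, a description over genes that share a library. Values without this culture therefore stand beside the results it moves.

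**Figure D1:**
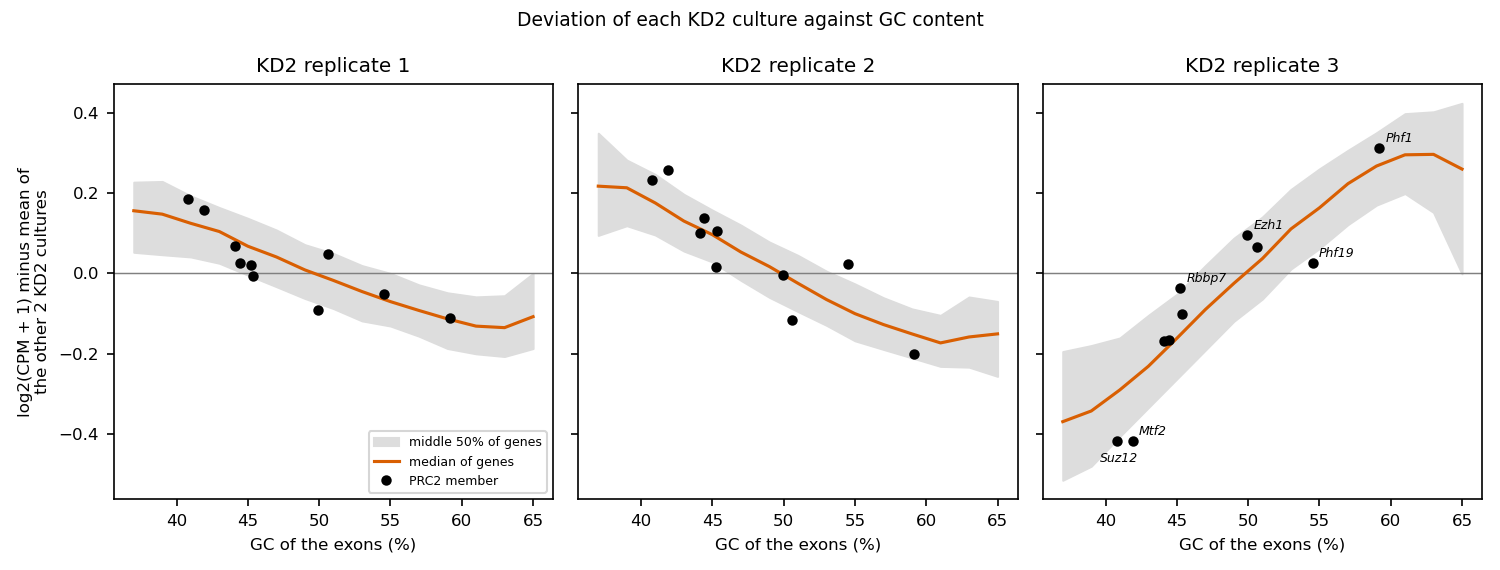
Deviation of each *KD2* culture from the mean of the other two, on a log2(CPM + 1) scale, against the GC content of a gene's exons in percent. The line is the median and the band the middle 50% of tested genes in bins of 2 percentage points, and the points are the 10 members. Replicate 3 rises with GC, from -0.42 for *Suz12* to 0.31 for *Phf1*, while replicates 1 and 2 fall.

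Across the 10 members, *KD1* differed from *WT* in 4, of which *Mtf2* was higher and *Phf19*, *Jarid2* and *Aebp2* were lower. The cultures labelled *KD2* differed from *WT* in 8, with *Ezh2*, *Phf1* and *Phf19* higher and *Suz12*, *Rbbp7*, *Mtf2*, *Jarid2* and *Aebp2* lower. *KD2* differed from *KD1* in 7, with *Ezh1*, *Phf1* and *Phf19* higher and *Suz12*, *Rbbp7*, *Mtf2* and *Jarid2* lower. The call was an adjusted p under 0.05, from the quasi-likelihood test of edgeR and a Benjamini-Hochberg adjustment across every gene tested. Changes are given as log2 fold changes, with ± for the standard error. The same call took 56.9% of all genes for *KD1* against *WT* (26.9% higher, 30.0% lower), 67.2% for *KD2* against *WT* (34.0% higher, 33.3% lower) and 67.8% for *KD2* against *KD1* (34.8% higher, 33.0% lower). The counts of the members thus sat near those shares, somewhat below in *KD1* and somewhat above in *KD2*, and by themselves are no result about PRC2. With library size as the only scaling, 61.8% of the calls for *KD2* against *KD1* were higher, beside 51.3% with the main scaling.

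With a log2 fold change beyond 1 in either direction also required, none of the 10 members was called for *KD1* against *WT*, beside 16.8% of all genes. *Phf1* alone was called for *KD2* against *WT* (21.2% of all genes), and *Phf1* and *Phf19* for *KD2* against *KD1* (23.3%). The median log2 fold change of the 10 members was -0.03, -0.14 and -0.07 in the 3 comparisons in that order, and that of all tested genes was -0.03, 0.01 and 0.02. The comparisons share cultures, so their values stand side by side and are not independent of each other.

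**Figure D2:**
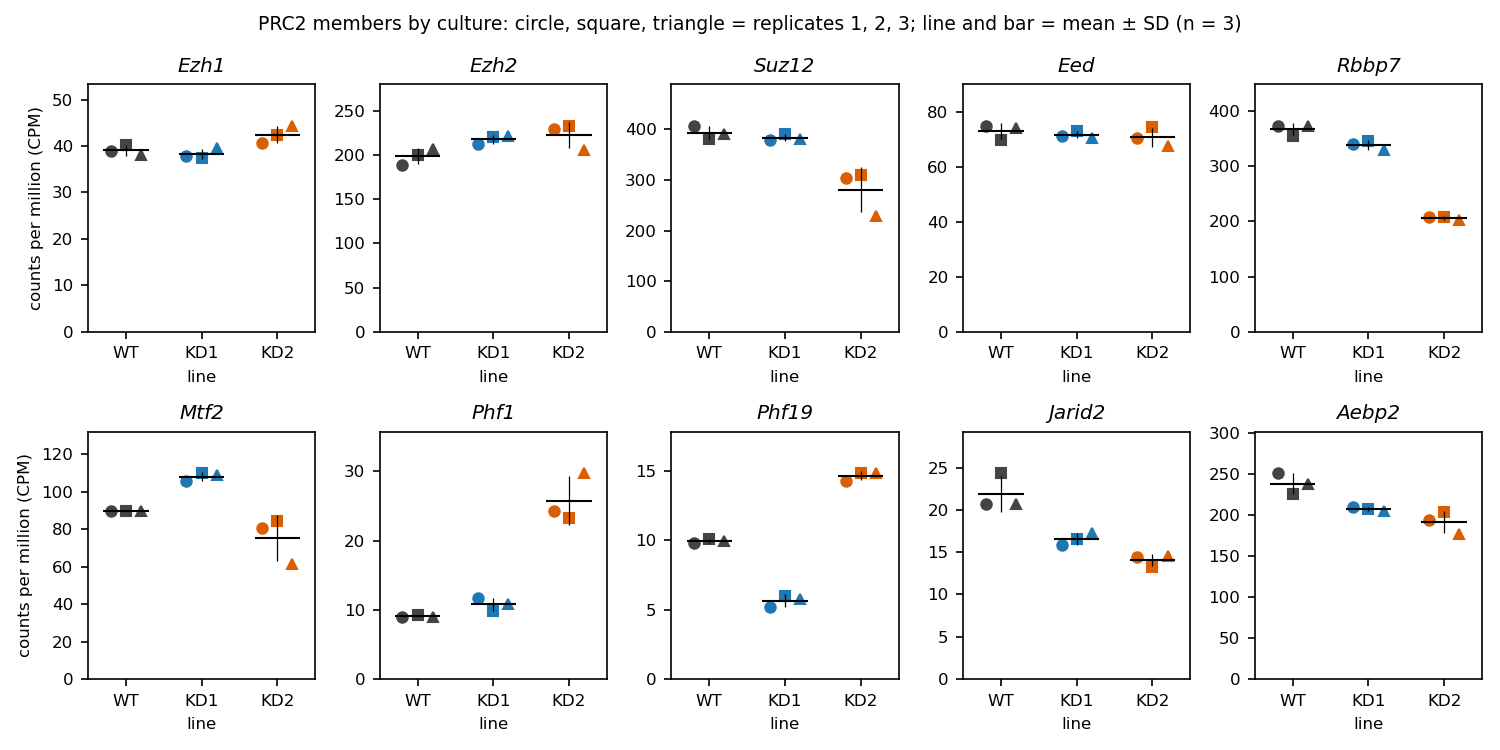
Level of each member in CPM (linear axes from 0) in the 9 cultures. Symbols are the replicates, and the line and bar are the mean and SD of 3 cultures. *Rbbp7* and *Suz12* are low in the 3 *KD2* cultures, *Phf1* is high in them, and *Phf19* is lowest in *KD1* and highest in *KD2*.

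**Figure D3:**
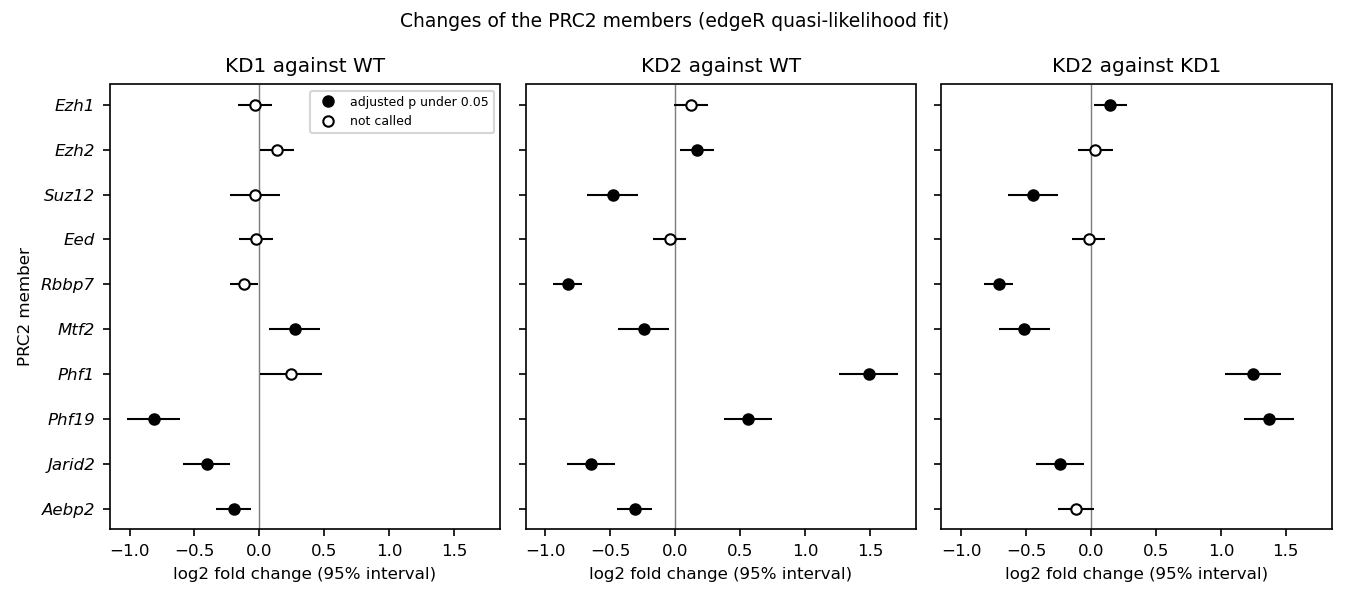
Log2 fold change of each member with its 95% interval in the 3 comparisons, from the edgeR fit. Filled points passed an adjusted p of 0.05. *Phf1* at 1.49 and *Rbbp7* at -0.83 lie at the ends of the *KD2* against *WT* panel, and *Phf19* at -0.82 lies at the low end of the *KD1* panel.

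The methyltransferase genes moved little. *Ezh2* (chr6:47530139-47595341, minus strand, GRCm38) encodes the main methyltransferase of cycling cells and was at 189, 200 and 207 CPM in *WT*, 212, 220 and 222 CPM in *KD1*, and 229, 233 and 206 CPM in *KD2*. The *KD1* cultures all lay above *WT*, and *KD2* overlapped *WT* only through replicate 3. *Ezh2* was higher in *KD2* than in *WT* (0.17 ± 0.06, 95% interval 0.03 to 0.30, adjusted p = 0.029) and missed the threshold in *KD1* (0.13 ± 0.06, interval 0.00 to 0.27, adjusted p = 0.079). Without *KD2* replicate 3 the change was 0.25 in *KD2* (adjusted p = 0.00011) and 0.15 in *KD1* (adjusted p = 0.0030). The *KD1* change was called in 8 of 19 alternatives. The *KD2* call was lost in 5 of 19, which were the fits without *WT* replicate 1 (0.13, adjusted p = 0.12), without *KD2* replicate 1 (0.15, adjusted p = 0.097) or without *KD2* replicate 2 (0.14, adjusted p = 0.10), with no filter on low counts (0.14, adjusted p = 0.14) and with only the 6 cultures compared (0.17, adjusted p = 0.067).

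*Ezh1* (chr11:101191115-101226463, minus strand) encodes the methyltransferase with the lower activity. It was at 38.9, 40.2 and 38.0 CPM in *WT*, 37.9, 37.4 and 39.5 CPM in *KD1*, and 40.6, 42.3 and 44.4 CPM in *KD2*. The *KD2* cultures lay just above all others, and *KD1* and *WT* overlapped. With all cultures and the main scaling and filter, *Ezh1* passed the threshold for *KD2* against *KD1* alone (0.15 ± 0.06, adjusted p = 0.041), a call lost in 12 of 19 alternative analyses, where the change ranged from 0.11 to 0.28. With the replicate number as a block it was 0.15 (adjusted p = 0.061). The intervals against *WT* were -0.16 to 0.10 in *KD1* and -0.01 to 0.25 in *KD2*. The *KD2* change of 0.12 against *WT* (adjusted p = 0.10) was 0.23 (adjusted p = 0.0052) with library size as the only scaling and was also called with at least 10 counts required in every culture (0.19, adjusted p = 0.012).

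The core subunits separated into a steady one and a pair that fell in the cultures labelled *KD2*. *Eed* (chr7:89954654-89980983, minus strand), the subunit that binds the methyl mark, was at 74.9, 69.7 and 74.2 CPM in *WT*, 71.1, 73.1 and 70.6 CPM in *KD1*, and 70.5, 74.3 and 67.4 CPM in *KD2*. The 3 lines overlapped. Its log2 fold change was -0.03 (interval -0.15 to 0.10) in *KD1* and -0.04 (interval -0.17 to 0.09) in *KD2*, so that the data bounded a change in either direction within 0.17 on the log2 scale.

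*Suz12* (chr11:79993106-80034123, plus strand) encodes the scaffold on which the complex assembles. It was at 407, 381 and 390 CPM in *WT*, 379, 391 and 381 CPM in *KD1*, and 304, 310 and 229 CPM in *KD2*. All *KD2* cultures lay below all others, and replicate 3 was the lowest of them. *Suz12* fell by 0.48 ± 0.09 in *KD2* against *WT* (adjusted p = 0.00034), to 0.717 of the *WT* level, and by 0.45 against *KD1* (adjusted p = 0.00057). Without *KD2* replicate 3 the changes were -0.33 and -0.31, and with a correction of each library for its GC trend they were -0.42 and -0.40, with every one of these still called. In *KD1* the change was -0.03 (interval -0.23 to 0.16).

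*Rbbp7* (chrX:162760402-162779092, plus strand), the gene of a histone-binding subunit that PRC2 shares with other chromatin complexes, gave 373, 355 and 373 CPM in *WT*, 340, 346 and 329 CPM in *KD1*, and 208, 208 and 203 CPM in *KD2*. The 3 lines did not overlap, and replicate 3 was close to the other *KD2* cultures. *Rbbp7* fell by 0.83 ± 0.05 in *KD2* against *WT* (adjusted p = 8.2e-09), to 0.563 of the *WT* level, and the call held in all 19 alternatives, between -0.86 and -0.72. In *KD1* the change was -0.12 ± 0.05 (adjusted p = 0.065). Without *KD2* replicate 3, which is in neither group but shares the estimate of the spread, it was -0.10 (adjusted p = 0.025). *Rbbp7* shares 11.2% of its transcript windows with other genes, *Gm6382* foremost, so part of its reads could have been left out or placed elsewhere.

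Its paralogue *Rbbp4*, the alternative histone-binding subunit, was not among the 10 members. It was at 273, 263 and 269 CPM in *WT*, 236, 242 and 224 CPM in *KD1*, and 253, 262 and 254 CPM in *KD2*. The order of the lines thus differed from that of *Rbbp7*, with *KD1* the lowest (-0.20 ± 0.05, adjusted p = 0.0054, and adjusted p = 0.051 without *KD1* replicate 3) and *KD2* at -0.07 (adjusted p = 0.27). Per kilobase of exon, the *Rbbp7* level was 4.11 ± 0.06 times that of *Rbbp4* in *WT* (SD, n = 3), 4.34 ± 0.05 times in *KD1* and 2.42 ± 0.04 times in *KD2*. *Rbbp4* shares 17.2% of its transcript windows with 20 other genes.

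The 3 Polycomb-like genes each took a different course. *Phf1* (chr17:26933052-26937908, plus strand) was at 9.01, 9.32 and 9.03 CPM in *WT*, 11.7, 9.83 and 10.8 CPM in *KD1*, and 24.3, 23.3 and 29.8 CPM in *KD2*. The *KD2* cultures were clear of the others, and *KD1* lay just above *WT*. *Phf1* rose 2.81-fold in *KD2* against *WT* (1.49 ± 0.11, adjusted p = 2.9e-08) and 2.37-fold against *KD1* (1.25 ± 0.10, adjusted p = 9.0e-08), and was 1.41 and 1.14 without *KD2* replicate 3. In *KD1* it was 0.24 ± 0.11 (adjusted p = 0.078), and this passed in 7 of 19 alternatives, among them the fit without *KD2* replicate 3 (0.26, adjusted p = 0.011) and the GC correction (0.32, adjusted p = 0.0018).

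The gene *Cuta*, on the opposite strand, and a further gene overlap exons of *Phf1*, *Cuta* by more bases. Their overlaps sum to 43.8% of the exon bases of *Phf1*, where a base shared with both would count for each. Whether the counting used strand is not given in the sources used here, so reads of the shared bases cannot be assigned to 1 gene with certainty. *Cuta* was at 32.2, 33.6 and 37.9 CPM in *WT*, 33.1, 33.2 and 34.7 CPM in *KD1*, and 42.9, 40.8 and 53.0 CPM in *KD2*. It was higher in *KD2* than in *WT* by 0.39 ± 0.09 (adjusted p = 0.0020), a smaller difference than that of *Phf1*, and stood at -0.04 (adjusted p = 0.76) in *KD1*.

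*Phf19* (chr2:34893757-34914026, minus strand) was at 9.78, 10.1 and 9.96 CPM in *WT*, 5.17, 6.02 and 5.81 CPM in *KD1*, and 14.3, 14.8 and 14.9 CPM in *KD2*. The lines did not overlap, with *KD1* below and *KD2* above *WT*, and replicate 3 was level with replicate 2 of *KD2*. *Phf19* fell by 0.82 ± 0.09 in *KD1* (adjusted p = 4.5e-06), rose by 0.56 ± 0.09 in *KD2* (adjusted p = 5.4e-05), and was 2.59-fold higher in *KD2* than in *KD1* (1.37 ± 0.09, adjusted p = 8.3e-09). All 3 calls held in all 19 alternatives. No other gene overlaps its exons.

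*Mtf2* (chr5:108065674-108109004, plus strand) was at 89.5, 89.5 and 89.6 CPM in *WT*, 106, 110 and 109 CPM in *KD1*, and 80.6, 84.5 and 61.4 CPM in *KD2*. *KD1* lay above and *KD2* below *WT*, with replicate 3 far under the other *KD2* cultures. *Mtf2* rose by 0.27 ± 0.09 in *KD1* (adjusted p = 0.021), a call lost without *KD1* replicate 2 (0.26, adjusted p = 0.059) or *KD1* replicate 3 (0.27, adjusted p = 0.053). It was lower in *KD2* by 0.24 ± 0.09 (log2 fold change -0.24, adjusted p = 0.031), but without *KD2* replicate 3 the change was -0.09 (adjusted p = 0.073). The call was lost in 7 of 19 alternatives in all, among them the fits without *WT* replicate 1 (-0.25, adjusted p = 0.059), *WT* replicate 2 (-0.22, adjusted p = 0.096) or *WT* replicate 3 (-0.22, adjusted p = 0.10), and with only the 6 cultures compared (-0.24, adjusted p = 0.071). It was also lost with library size as the only scaling (-0.13, adjusted p = 0.22) and with at least 10 counts in every culture (-0.17, adjusted p = 0.13). *KD2* against *KD1* was -0.51 ± 0.09 (adjusted p = 0.00019), -0.38 without *KD2* replicate 3, and was called in all 19 alternatives.

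Per kilobase of exon (RPKM, the CPM divided by the exon length), these opposite moves changed the makeup of the Polycomb-like transcripts more than their sum. The summed level of *Mtf2*, *Phf1* and *Phf19* was 20.3 ± 0.07 RPKM in *WT*, 23.2 ± 0.25 RPKM in *KD1* and 23.6 ± 1.14 RPKM in *KD2* (SD, n = 3). *Mtf2* made up 77.4% of the sum in *WT*, 81.8% in *KD1*, and 48.4% to 60.6% in the *KD2* cultures, the lowest of which was replicate 3. *Phf1* made up 12.9% in *WT*, 13.4% in *KD1* and 27.3% to 38.3% in *KD2*, and *Phf19* 9.73%, 4.84% and 12.4%. The exon length of *Phf1* less the summed overlaps with other genes was 1960 bases. Where its reads are taken to come only from so many bases, its share was 20.8% in *WT* and 44.9% in *KD2*. These are shares of transcripts, and protein was not measured.

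**Figure D4:**
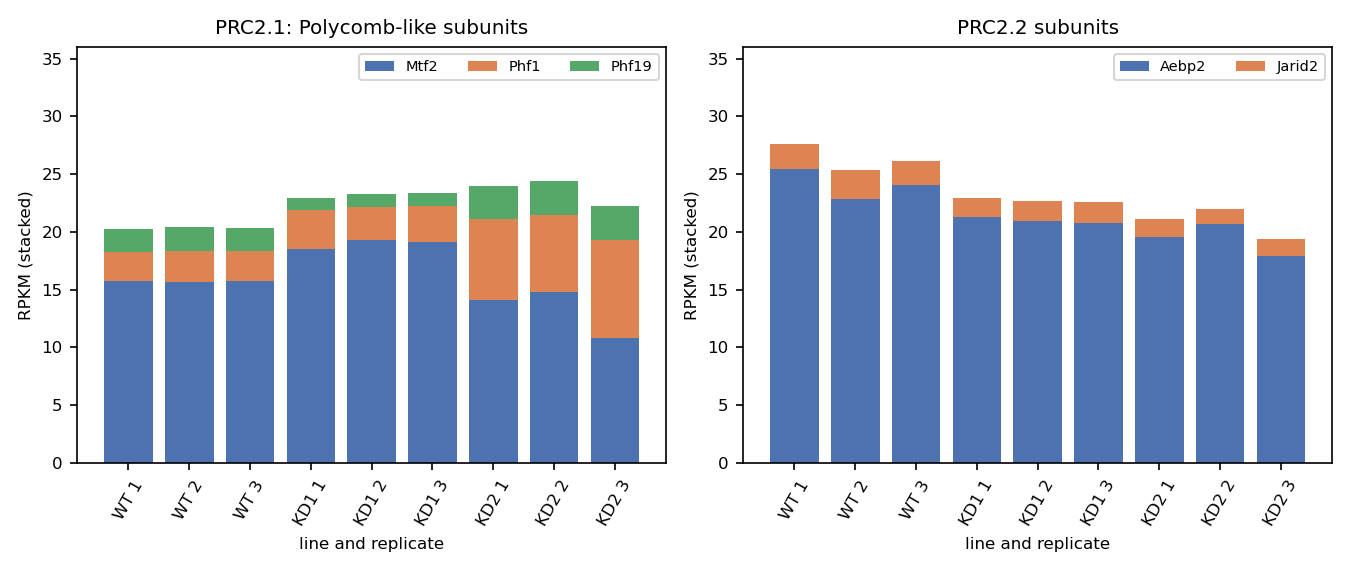
RPKM (linear axes from 0, stacked) of the Polycomb-like genes of PRC2.1 and of the PRC2.2 genes in each culture. The sum of the Polycomb-like genes is 20.2 to 20.4 RPKM in *WT* and 22.3 to 24.4 RPKM in *KD2*, with a larger *Phf1* share in *KD2*, while *Aebp2* and *Jarid2* together fall from 25.3 to 27.6 RPKM in *WT* to 19.4 to 22.0 RPKM in *KD2*.

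The PRC2.2 genes were lower in both edited lines. *Jarid2* (chr13:44729474-44921643, plus strand), which encodes a DNA-binding cofactor without the demethylase activity of its family, was at 20.6, 24.4 and 20.7 CPM in *WT*, 15.8, 16.6 and 17.3 CPM in *KD1*, and 14.4, 13.2 and 14.5 CPM in *KD2*. The lines did not overlap, and *WT* replicate 2 was the highest culture. *Jarid2* fell by 0.41 ± 0.08 in *KD1* (adjusted p = 0.00095) and by 0.65 ± 0.09 in *KD2* (adjusted p = 1.5e-05), and both calls held in all 19 alternatives. *KD2* against *KD1* was -0.24 ± 0.09 (adjusted p = 0.024), a call lost without *KD1* replicate 2 (-0.25, adjusted p = 0.055), *KD1* replicate 3 (-0.22, adjusted p = 0.082) or *KD2* replicate 2 (-0.20, adjusted p = 0.096), and with library size as the only scaling (-0.12, adjusted p = 0.26).

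*Aebp2* (chr6:140622663-140678472, plus strand), the gene of a zinc finger subunit, was at 251, 225 and 237 CPM in *WT*, 210, 207 and 205 CPM in *KD1*, and 193, 203 and 177 CPM in *KD2*. All edited cultures lay below all *WT* cultures. *Aebp2* fell by 0.20 ± 0.06 in *KD1* (adjusted p = 0.016) and by 0.31 ± 0.06 in *KD2* (adjusted p = 0.00059). The *KD2* call held in all 19 alternatives, and the *KD1* call was lost without *WT* replicate 1 (-0.16, adjusted p = 0.070), *WT* replicate 3 (-0.18, adjusted p = 0.068), *KD1* replicate 2 (-0.19, adjusted p = 0.055) or *KD1* replicate 3 (-0.18, adjusted p = 0.068). *KD2* and *KD1* differed by -0.12 (interval -0.25 to 0.02), which turned to 0.01 with library size as the only scaling.

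Set against each other per kilobase, the 3 Polycomb-like genes summed to 0.771 ± 0.04 of *Jarid2* plus *Aebp2* in *WT*, 1.02 ± 0.02 in *KD1* and 1.13 ± 0.02 in *KD2* (SD, n = 3). The 3 ranges were 0.734 to 0.804, 0.999 to 1.04 and 1.11 to 1.15, and did not overlap. *KD2* replicate 3 was the highest at 1.15. With *Phf1* counted over 1960 exon bases, its length less the summed overlaps, the ratios were 0.849, 1.13 and 1.41. The ratio of *Ezh2* to *Ezh1* was 5.67 ± 0.35 in *WT*, 6.35 ± 0.18 in *KD1* and 5.86 ± 0.61 in *KD2*, and that of *Suz12* to *Eed* was 4.17 ± 0.09, 4.15 ± 0.03 and 3.07 ± 0.38. For *Ezh2* to *Ezh1*, *KD2* replicates 1 and 2 had 6.29 and 6.14, above the *WT* range of 5.40 to 6.06, and replicate 3 had 5.16. For *Suz12* to *Eed*, *KD2* replicates 1, 2 and 3 had 3.33, 3.24 and 2.63.

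By level, *Rbbp7* led in *WT* with 126 ± 3.62 RPKM, followed by *Suz12* with 79.4 ± 2.71, *Ezh2* with 29.7 ± 1.37, *Aebp2* with 24.1 ± 1.31, *Eed* with 19.0 ± 0.74 and *Mtf2* with 15.7 ± 0.01. *Ezh1* followed with 5.25 ± 0.15 RPKM, then *Phf1* with 2.62 ± 0.05, *Jarid2* with 2.25 ± 0.22 and *Phf19* with 1.98 ± 0.03. The ranges of the 3 cultures did not overlap between neighbours in this order, although *Jarid2* and *Phf19* differed by little more than the SD of *Jarid2*. In *KD2* the order changed in that *Phf1*, at 7.39 ± 1.00 RPKM, stood above *Ezh1*, at 5.70 ± 0.25, and *Phf19*, at 2.91 ± 0.06, above *Jarid2*, at 1.45 ± 0.07. *Aebp2* (19.4 ± 1.37 RPKM) and *Eed* (18.5 ± 0.90) overlapped there only through replicate 3. In *KD2* replicates 1, 2 and 3, *Aebp2* was at 19.6, 20.7 and 17.9 RPKM and *Eed* at 18.4, 19.4 and 17.6 RPKM.

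The other subunits included the member of the wider complex with the largest difference. *Epop* (chr11:97627389-97629702, minus strand), the gene of a PRC2.1 partner that links the complex to elongin, had 56, 84 and 66 counts in *WT*, 123, 137 and 110 in *KD1*, and 1, 3 and 2 in *KD2*. All *KD2* cultures were thus at or under the limit of 3 counts. Against that limit in each *KD2* library, *Epop* was at least 25.6-fold lower in *KD2* than in *WT* (adjusted p = 3.0e-09) and at least 39.0-fold lower than in *KD1* (adjusted p = 2.3e-10). In *KD1* it rose by 0.60 ± 0.15 (adjusted p = 0.0030), and by 0.91 with the GC correction. No gene overlaps its exons.

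*Lcor* and *Lcorl*, some of whose products are alternative partners of PRC2.1, followed neither *Epop* nor each other. *Lcor* was at 55.1, 57.4 and 47.9 CPM in *WT*, 73.2, 74.7 and 76.5 CPM in *KD1*, and 60.6, 60.3 and 47.2 CPM in *KD2*. It rose in *KD1* (0.48 ± 0.09, adjusted p = 0.00048), and in *KD2* it was 0.07 (adjusted p = 0.53) with all cultures and 0.20 (adjusted p = 0.0079) without *KD2* replicate 3. *Lcorl* was at 64.0 to 75.7 CPM in *WT*, 64.0 to 65.6 in *KD1*, and 63.3, 66.0 and 40.7 in *KD2*, and passed no threshold in the fit of all cultures (-0.07 with adjusted p = 0.67 in *KD1*, and -0.26 with adjusted p = 0.10 in *KD2*). Its *KD2* value was called in 5 of 19 alternatives, among them the GC correction (-0.24, adjusted p = 0.00034) and the replicate block (-0.28, adjusted p = 0.044), and was -0.05 (adjusted p = 0.48) without *KD2* replicate 3. *KD2* against *KD1* was called in 3 of 19. *Ezhip*, the gene of a PRC2 inhibitor, listed as *AU022751*, had 0 counts in all 9 cultures, which allows up to 0.0999 to 0.154 CPM.

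Whole chromosomes differed between the lines, and some members moved with theirs. In *KD2* against *WT* the median log2 fold change of a chromosome's tested genes ran from -0.66 to 0.28, and in *KD1* from -0.27 to 0.15. *Jarid2*, at -0.65 in *KD2*, lay at the median of the other 593 genes of chromosome 13 (-0.66), where 61.7% of genes were called lower, and near that of the 13 genes within 2 Mb (-0.53). *Rbbp7*, at -0.83, stood beside a chromosome X median of -0.62, with 71.1% of 449 genes called lower, and a median of -0.86 over 18 genes within 2 Mb. *Mtf2*, at -0.24, stood beside -0.20 for chromosome 5, both from the fit of all cultures. Without *KD2* replicate 3 *Mtf2* was at -0.09. DNA copy number was not measured, and its part in these values was not tested.

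Other members departed from their chromosomes in *KD2*. *Phf1*, at 1.49, stood 1.21 above the chromosome 17 median of 0.28 and higher than 88.2% of its genes. *Phf19*, at 0.56, lay above the chromosome 2 median of 0.13 and the median of 0.33 within 2 Mb. *Suz12*, at -0.48, was below 0.10 for chromosome 11 and 0.11 for 51 genes within 2 Mb, and *Aebp2*, at -0.31, was below 0.23 for chromosome 6. *Ezh2*, at 0.17 on the same chromosome, and *Ezh1*, at 0.12 on chromosome 11, lay close to those medians. *Epop*, also on chromosome 11, fell where the 94 genes within 2 Mb had a median of 0.12. In *KD1*, *Phf19* at -0.82 had the widest gap of the 10 members, to a chromosome 2 median of -0.16, and *Jarid2* at -0.41 lay below a chromosome 13 median of -0.04.

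**Figure D5:**
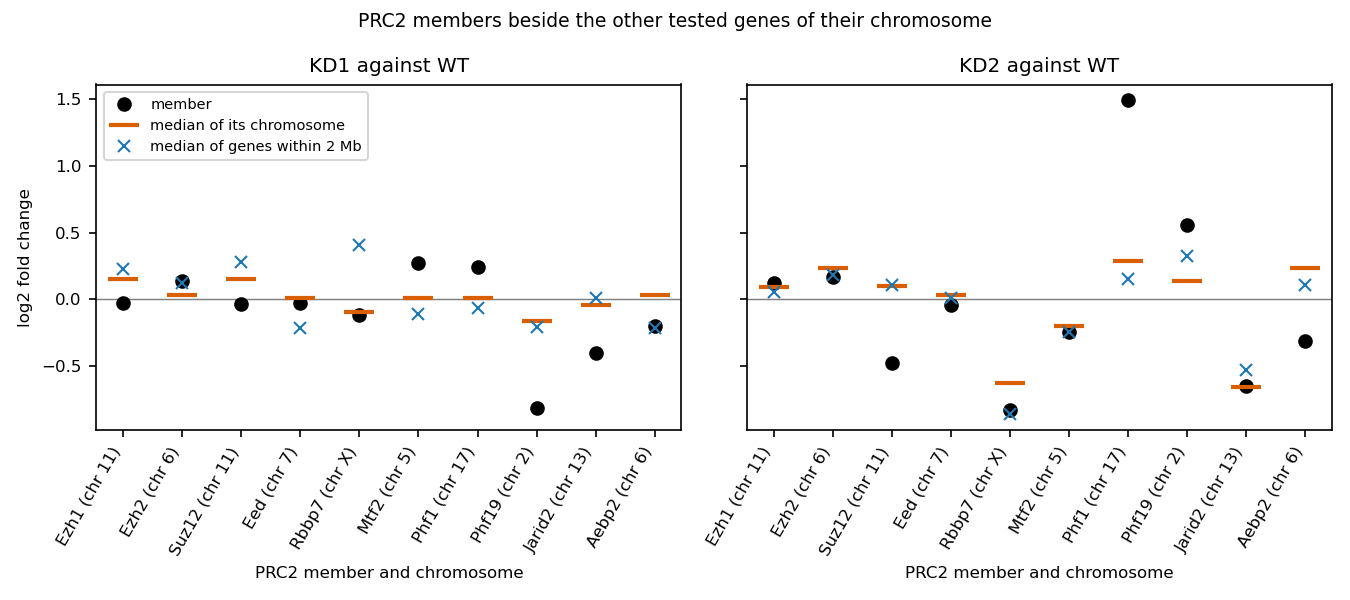
Log2 fold change of each member (point) in *KD1* and *KD2* against *WT*, with the median of the other tested genes on its chromosome (bar) and within 2 Mb (cross). In *KD2*, with all cultures in the fit, *Jarid2* and *Mtf2* sit on or near their chromosome medians of -0.66 and -0.20, while *Phf1*, *Suz12* and *Aebp2* sit away from theirs.

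A list of genes taken as opponents of PRC2 gave a background for these values. Whether each product acts against PRC2 in these cells was not tested. Of 18 such genes (demethylases and acetylases of H3K27, H3K4 and H3K36 methylases, SWI/SNF subunits and the H2A deubiquitinase), none was called higher and 11 lower in *KD1*, with a median of -0.18 beside -0.03 over all genes. In *KD2*, 2 were called higher and 9 lower, with a median of -0.16 beside 0.01. Of all genes, 56.9% and 67.2% were called in those comparisons, and 30.0% and 33.3% were called lower. *Kmt2c*, an H3K4 methylase, fell in both lines (-0.76 and -0.78, adjusted p = 3.1e-06 and 1.8e-06), as did *Nsd1*, an H3K36 methylase (-0.44 in *KD1* with adjusted p = 0.00052, -0.67 in *KD2* with adjusted p = 1.0e-05). *Bap1*, the deubiquitinase, fell by 0.91 in *KD2* (adjusted p = 2.0e-08) and by 0.22 in *KD1* (adjusted p = 0.0075). *Kmt2a* and *Asxl1* rose in *KD2* (0.35 and 0.26, adjusted p = 0.0025 and 0.00061) and fell in *KD1* (-0.26 and -0.18, adjusted p = 0.017 and 0.011). The *KD1* calls of *Bap1*, *Kmt2a* and *Asxl1* were lost in 1, 4 and 3 of 19 alternatives. Set against *KD1*, the *KD2* line was called higher in 4 of the 18 and lower in 3, beside 34.8% and 33.0% of all genes. *Nsd2*, an H3K36 methylase, was at -0.76 there (adjusted p = 1.0e-07). Unlike the members, these 18 genes were not set beside the medians of their chromosomes, and the part of chromosome-wide shifts in their values was not tested.

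Of 27 E2F and proliferation genes, 18 were called higher and 3 lower in *KD1* (median 0.22), and 4 higher and 11 lower in *KD2* (median -0.06). *KD2* was called higher than *KD1* in 1 and lower in 18 (median -0.26). The medians of all genes were -0.03, 0.01 and 0.02 in the same order. Of all genes, 26.9% were called higher and 30.0% lower in *KD1*, 34.0% and 33.3% in *KD2*, and 34.8% and 33.0% between the lines. In the same order, 21, 15 and 19 of the 27 were called in either direction, beside 56.9%, 67.2% and 67.8% of all genes. In *KD1*, *Cdc6* and *Mcm4*, genes of replication licensing, rose by 1.11 and 0.69 (adjusted p = 1.5e-08 and 3.3e-07), while *E2f2* and *Mcm5* fell by 1.42 and 0.27 (adjusted p = 3.4e-10 and 0.0020). In *KD2*, *Cdc6* and *Mcm2* rose by 0.56 and 0.35 (adjusted p = 1.3e-05 and 0.00027), and *Cdt1* fell by 0.62 (adjusted p = 2.4e-05). Between the lines, *E2f2* was the only one called higher in *KD2* (1.09, adjusted p = 4.1e-09), and *Cdc25a* was lower at -1.02 (adjusted p = 9.6e-10). Beside these, the members with an E2F motif match did not share a direction, with *Ezh2* at 0.13 and 0.17, *Suz12* at -0.03 and -0.48 and *Phf19* at -0.82 and 0.56 in *KD1* and *KD2*. A lack of a match says only that these letters are not in the window.

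Polycomb target genes known from mouse embryonic stem cells were mostly silent. Of 40, 27 were at or under 3 counts in every culture and 16 of those had 0 counts throughout, and 9 passed the expression filter. A gene could pass through 1 line alone, so counts over the 9 carry no weight as evidence. In *KD1*, none of the 9 was called higher and 7 were called lower, beside 26.9% and 30.0% of all genes. In *KD2*, 5 were called higher and 3 lower, beside 34.0% and 33.3% of all genes. *Foxf1*, a forkhead factor of mesoderm, averaged 6.83 CPM over the *WT* cultures, 0.286 CPM over those of *KD1* (-4.56 ± 0.18, adjusted p = 5.4e-11) and 41.6 CPM over those of *KD2* (2.60 ± 0.09, adjusted p = 3.1e-11). *Pax3* had 3, 10 and 4 counts in *WT*, 0, 0 and 1 in *KD1*, and 25, 25 and 14 in *KD2*. Its *WT* level was thus near the limit of 3 counts. It may have passed the filter through the *KD2* cultures alone, so no test of it is given. *Tbx15* fell in *KD1* (-1.11, adjusted p = 2.7e-08) as well as in *KD2* (-0.94, adjusted p = 1.2e-07). *Msx1* fell by 0.27 in *KD1* (adjusted p = 0.022, lost in 3 of 19 alternatives) and by 1.03 in *KD2* (adjusted p = 4.7e-07). The H3K27 mark was not measured in these files, so these levels say nothing of its presence at any gene.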

How the data were processed

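The deposited table held raw counts of reads per gene. Per the study's methods and the submitters' processing notes, the authors made them with fastp for trimming, HISAT2 for alignment to GRCm38, and featureCounts of Subread for exon reads per gene. Exons came from GENCODE's GRCm38 annotation, in another release than the one used here for positions. Tool versions and strand setting are not given in the sources used here. The library kit was a NEB Ultra RNA kit. The labels state that lysates were frozen at once, and the study's methods state that they were not.

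Columns were matched to cultures by title. Of 55228 gene names, 53569 matched GENCODE M21 (GRCm38) directly and 132 as older symbols, which gave positions, exon lengths and GC content. Counts were fitted with edgeR 4.0.16 in R 4.3.3 (quasi-likelihood, TMM scaling, filterByExpr on the 3 lines, 1 fit of all 9 cultures, no block). CPM and RPKM use TMM-scaled library sizes, ± after a log2 fold change is its standard error, and intervals cover 95%. The fit was tested on simulated counts. DESeq2 1.42.0, limma 3.58.1 with sample weights, other scalings and filters, a GC correction (lowess, span 0.3), a replicate block and leaving out each culture were the alternatives, 19 in all. Members, gene lists and tests were chosen with earlier results of these data known. Named were all members, *Vangl2*, other PRC2 subunits, overlapping *Cuta*, and from each other list per comparison up to 2 called genes with the largest rise and 2 with the largest fall. A gene that this rule names in the E2F list is not reported here. *Lum* and *Gm6382* were named after their values were seen. Depth of 19231428 to 28360592 counts limits genes near 3 counts, and this limit covers counting error only.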

Additional observations from a re-analysis of the deposited data

Results flagged for a closer look

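*Mtf2*, *Phf19* and *Epop* are listed because their log2 fold changes against *WT* had opposite signs in *KD1* and *KD2* and the lines differed in the edgeR test of *KD2* against *KD1*. *Phf19* was 1.37 higher in *KD2* than in *KD1* (adjusted p = 8.3e-09), with -0.82 in *KD1* and 0.56 in *KD2*. *Mtf2* was at -0.51 (adjusted p = 0.00019), with 0.27 in *KD1* and -0.24 in *KD2*, and at -0.38 without *KD2* replicate 3. *Epop* was at -5.82 in the fit (adjusted p = 2.3e-10), a value that depends on the prior count because *KD2* was at or under 3 counts in every culture, so the bound of at least 39.0-fold is the measured size.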

How the results depend on the processing

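For the 10 members in 3 comparisons, 490 of 570 alternative values kept their direction and side of the threshold, 34 lost the call, 28 gained one and 18 changed sign. For *KD1* against *WT* the count of called members was 4, and it was 7 with limma and sample weights and 7 with the GC correction. It was 7 with the GC correction and replicate block together, and 2 to 7 when 1 culture was left out. The 2 came without *KD1* replicate 3 and the 7 without *KD2* replicate 3. Calls over all genes moved as well, from 8686 of 15253 to 10175 with limma, 9712 with the GC correction and 9714 with the GC correction and block. They were 7683 of 15603 without *KD1* replicate 3 and 10077 of 15597 without *KD2* replicate 3. Leaving out 1 culture gave 6 to 8 called members for *KD2* against *WT* and 5 to 7 for *KD2* against *KD1*, beside 8 and 7. Over all genes the calls then ran from 9694 to 11098 and from 9628 to 11234, beside 10254 and 10340. Deviations of same-numbered cultures of different lines had correlations of -0.08 to 0.13, beside -0.14 to 0.14 for different numbers. With 3 cultures per line, these values cannot show whether the numbers pair the cultures. The replicate block gave 4, 8 and 6 called members, the change being *Ezh1* (adjusted p = 0.061), and *Rbbp4*, which is no member, also lost its *KD2* against *KD1* call (0.13, adjusted p = 0.066), while *Lcorl* gained one for *KD2* against *WT* (-0.28, adjusted p = 0.044). Over all genes the replicate block gave 8632, 10230 and 10313 calls. Values that changed sign were all uncalled. With at least 10 counts in every culture they were *Ezh1* 0.0046, *Suz12* 0.0027 and *Eed* 0.0097 in *KD1*, *Eed* 0.029 and *Rbbp4* 0.0036 in *KD2*, and *Eed* 0.019 in *KD2* against *KD1*. With only the 6 cultures compared, *Ezh1* was 0.0090, *Suz12* 0.0079, *Eed* 0.016 and *Cuta* 0.0042 in *KD1*. With library size alone, *Eed* was 0.068 and *Rbbp4* 0.043 in *KD2*, and *Eed* 0.11 and *Aebp2* 0.010 in *KD2* against *KD1*, while the median of all genes shifted by 0.11 and 0.13. With limma, *Vangl2* was -0.073 in *KD2* and *Eed* 0.0049 in *KD2* against *KD1*, and with no filter *Ezh2* was -0.0079 there. Leaving out 1 culture, the ranges that crossed 0 were, in *KD1*, *Ezh1* -0.048 to 0.013, *Eed* -0.037 to 0.0099, *Lcorl* -0.097 to 0.0072 and *Cuta* -0.083 to 0.056, in *KD2*, *Eed* -0.075 to 0.018 and *Vangl2* -0.038 to 0.13, and in *KD2* against *KD1*, *Ezh2* -0.0021 to 0.093, *Eed* -0.054 to 0.023 and *Lcorl* -0.31 to 0.0024. The causes were not tested. Over the whole table, calls past the log2 limit of 1 fell from 2568, 3235 and 3556 to 1319, 1698 and 1914 with at least 10 counts in every culture, where 12296 genes remained in the test.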
